A study of Mus musculus with 4 samples.

Results

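The genes described here are 10 genes by which cells sense bacterial endotoxin and other microbial molecules, namely Lbp, Cd14, Tlr4, Ly96, Tlr2, Tlr1, Tlr3, Myd88, Ticam1 and Irak3. They were taken by symbol from the 55421 genes listed in the count files, after the Ensembl identifiers had been matched to GENCODE M21, and 10 of 10 were found. The RNA came from prefrontal cortex (PFC) tissue of wild-type C57BL/6 mice at postnatal day 0, which was dissociated to single cells and kept in neurobasal medium with B27 for 10 days. There were 2 libraries from cultures given FGF2 at 5 ng/mL and 2 libraries from cultures without FGF2, numbered replicate 1 and 2 in each group. The cells were not sorted, and the study compared the groups to ask how FGF2 changes the cells that arise in such cultures. The meninges and vessels were peeled off before dissociation. The study's methods give biological replicates for some human samples and technical replicates for the others. Taken literally, this would make the mouse libraries technical replicates, but they are not named there. Whether the 2 libraries of a group came from separate animals or cultures is not stated. The p-values may therefore measure technical spread only and not that between animals or cultures.

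The members act in a chain. Lbp encodes a soluble protein that binds lipopolysaccharide, the endotoxin of Gram-negative bacteria, and hands it to CD14, which passes it to the receptor made of TLR4 and MD-2 (the product of Ly96). TLR2 senses bacterial lipoproteins together with TLR1 or TLR6, and TLR3 senses double-stranded RNA inside endosomes. MyD88 is the adaptor of most Toll-like receptors, TRIF (the product of Ticam1) serves TLR3 and TLR4, and IRAK3, also called IRAK-M, dampens the signal after MyD88. In the brain these receptors are best known from microglia, and astrocytes also express some of them.

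Reads assigned to genes summed to 9166432 and 9907613 counts in the FGF2 libraries and to 10460236 and 10799886 counts in the libraries without it. Levels are given as CPM, that is counts scaled to a common library size after TMM normalisation, and a gene with 0 counts could be present at up to 3 counts, or 0.277 to 0.331 CPM depending on the library, which covers counting error only. Fold changes are FGF2 over no FGF2, from the quasi-likelihood test of edgeR with p-values adjusted by Benjamini-Hochberg over 17144 genes left by the filter on low counts. Neuronal markers were present, with summed levels of 2900 and 2937 CPM with FGF2 and 4002 and 3972 CPM without FGF2, beside astrocyte markers at 12710 and 12580 CPM with FGF2 and 7726 and 7678 CPM without FGF2. The cultures therefore held the RNA of mixed neural cells, and in bulk RNA fewer cells of a type and less RNA per cell cannot be told apart.

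The stretches before the RefSeq start of 3 members are shown because these genes had a large (Tlr2), an intermediate (Myd88) and a small (Ticam1) change. Sequences were taken from the RefSeq table of GRCm38.p6, where 6 of the 10 members had a window of 250 bases before a start site, some with more than 1 start, giving 8 windows. The windows of Tlr4, Cd14, Ly96 and Lbp were not analysed here. The printed stretches leave out bases that GENCODE M21 places in an exon and read 5′ to 3′ on the strand of the gene. For each gene, 1 set of searched letters is in capitals. Other searched letters, such as GGGCGG in the Myd88 and Ticam1 stretches, are in lower case. They lie at chr3:83841768-83841858 (Tlr2), chr9:119340042-119340268 (Myd88) and chr17:56276787-56277017 (Ticam1), each on the minus strand. The Myd88 stretch lies within an intron of a longer GENCODE transcript, which starts at 119341411.
Tlr2: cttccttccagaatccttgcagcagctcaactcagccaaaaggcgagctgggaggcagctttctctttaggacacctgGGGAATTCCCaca
Myd88: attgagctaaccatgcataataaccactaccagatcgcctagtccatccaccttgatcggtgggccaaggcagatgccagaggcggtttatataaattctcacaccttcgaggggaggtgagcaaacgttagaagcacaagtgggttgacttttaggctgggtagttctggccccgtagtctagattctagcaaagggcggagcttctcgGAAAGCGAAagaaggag
Ticam1: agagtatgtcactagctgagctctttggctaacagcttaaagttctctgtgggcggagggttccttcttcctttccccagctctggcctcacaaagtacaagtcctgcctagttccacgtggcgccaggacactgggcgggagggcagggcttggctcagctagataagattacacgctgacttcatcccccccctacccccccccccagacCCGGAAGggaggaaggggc

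The capitals of Tlr2 mark GGGNNTTCC, letters that occur in NF-kB sites, which was found in 1 of the 8 member windows and in 4.98% of all 32851 windows of the same length, searched on both strands. The match of Tlr2 starts 172 bases before the RefSeq start and reads as the searched letters on both strands, so that the matches overlap. The related letters GGGNNTTTC were found for Tlr3 only, 211 bases before its start, and in 3.72% of all windows. The capitals of Myd88 mark GAAANNGAA, letters of interferon response elements, which were found for Myd88 and Irak3 and in 7.13% of all windows. The capitals of Ticam1 mark CCGGAAG, letters of ETS factor sites, which were found for Ticam1 and Tlr1 and in 6.91% of all windows. The AP-1 letters TGANTCA and the CRE letters TGACGT were in none of the 8 windows and in 6.75% and 6.47% of all windows. The letters GGGCGG were found for Tlr2, Myd88, Irak3 and Ticam1 and in 32.7% of all windows. These matches are descriptions of the letters, and binding was not measured.

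Transcripts of the members were higher with FGF2 at nearly every step, from the endotoxin carriers to the brake. The 8 members that passed the filter were all higher (edgeR, adjusted p threshold 0.05), where 40.5% of the 17144 tested genes were called, 20.7% as higher and 19.9% as lower. Of these, 6 members had a log2 fold change over 1, beside 5.22% of the tested genes. The median log2 fold change of the 8 members was 1.56 and that of all tested genes was -0.0008. Cd14 and Irak3 passed the filter only through their level with FGF2, so such members had to differ in order to be tested, and Tlr1 and Ly96 were too low for the test. For 9 of the 10 members the lower of the FGF2 libraries lay above the higher of the others, beside 33.6% of the tested genes, and Tlr1 was the exception.

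**Figure D1:**
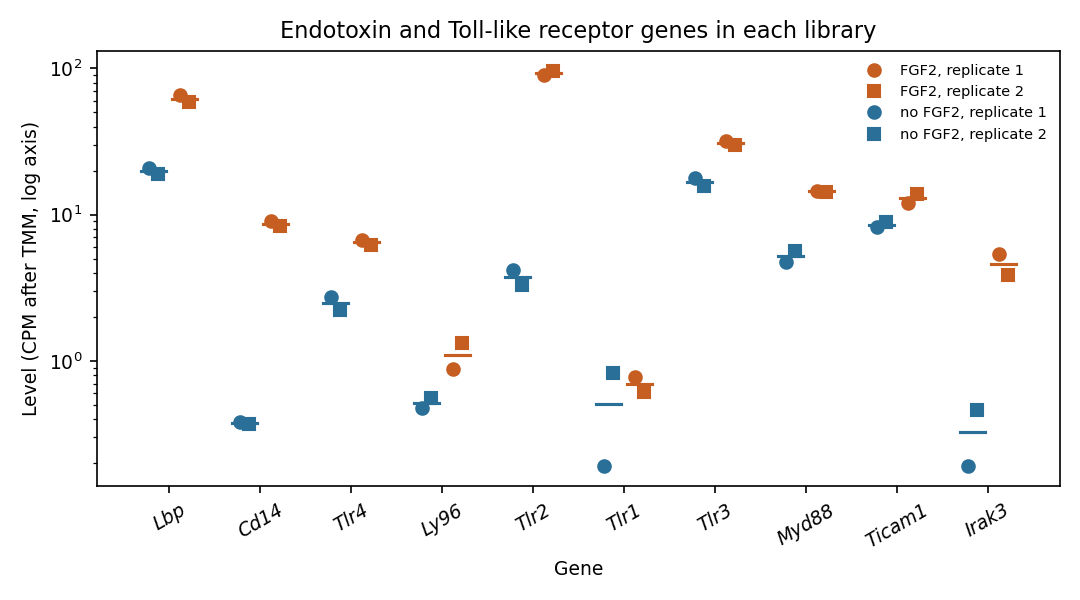
Level of each member in each library, in CPM after TMM scaling on a log axis, with FGF2 in orange and no FGF2 in blue, circles for replicate 1, squares for replicate 2 and lines for the group means. Tlr2 goes from 4.19 and 3.33 CPM without FGF2 to 90.6 and 96.8 CPM with FGF2, and Tlr1 is the member whose groups overlap.

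Lbp, the carrier of endotoxin, is encoded on chromosome 2 (mm10) between 158306493 and 158332852 and was a highly measured member in both groups. It had 65.4 and 59.0 CPM with FGF2 and 20.9 and 18.8 CPM without FGF2. The groups were far apart compared with the spread within them, and the log2 fold change was 1.64 ± 0.10 (SE, adjusted p = 1.0e-54, edgeR). The level of Lbp was therefore 3.12-fold higher with FGF2.

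Cd14, the co-receptor that takes endotoxin from LBP, lies on chromosome 18 from 36725067 to 36726798. It was counted 82 times in each library with FGF2 and 4 times in each library without FGF2, which is 9.04 and 8.34 CPM with FGF2 and 0.38 and 0.37 CPM without FGF2. Cd14 thus went from just above the detection limit to a clear level, with a log2 fold change, 4.49, that had a standard error of 0.41 (adjusted p = 4.8e-26, edgeR). Because only 8 counts stood without FGF2, the ratio of the pooled counts, 23.1, had an exact 95% counting interval from 11.5 to 54.5.

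Tlr4, the signalling receptor for endotoxin, lies on chromosome 4 from 66827584 to 66930284. It had 6.72 and 6.20 CPM with FGF2 and 2.76 and 2.22 CPM without FGF2, from 61 and 61 counts against 29 and 24 counts. The groups did not overlap, and the log2 fold change was 1.37 ± 0.30 (SE, adjusted p = 2.7e-05, edgeR), a smaller value than for its co-receptor Cd14. Ly96, whose product MD-2 holds the endotoxin within the TLR4 receptor, lies on chromosome 1 from 16688051 to 16709611 and had 8 and 13 counts with FGF2 and 5 and 6 counts without FGF2. Both FGF2 libraries were above both others, but the counts were too low for the test, and the ratio of pooled counts was 2.15 with an exact 95% counting interval from 0.99 to 4.95. Without a filter on low counts its log2 fold change was 1.09 (edgeR adjusted p = 0.34), and where another fit gave it a value the adjusted p lay between 0.26 and 0.55. A difference of Ly96 was not detectable at this depth.

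Tlr2, the receptor for bacterial lipoproteins, lies on chromosome 3 from 83836272 to 83841767 and had the largest fitted change of the tested members. It had 822 and 952 counts with FGF2 and 44 and 36 counts without FGF2, or 90.6 and 96.8 CPM against 4.19 and 3.33 CPM. The log2 fold change was 4.64 ± 0.13 (SE, adjusted p = 1.9e-271, edgeR), a 24.9-fold higher level that ranked 34 among the rises of the 17144 tested genes. Cd14 ranked 35 and Irak3 ranked 54 in the same order, but both were tested only through their level with FGF2. Their ranks therefore carry little weight. The partners of TLR2 were scarce in both groups. Tlr1, on chromosome 5 from 64924679 to 64933563, had 7 and 6 counts with FGF2 and 2 and 9 counts without FGF2, so the groups overlapped, and the ratio of pooled counts was 1.33 with an exact 95% counting interval from 0.55 to 3.29. Tlr1 also shares a stretch of 106 exonic bases, 98.1% identical, with Mrgpre, so its few counts are uncertain. Tlr6, the other partner and no member, had 15 and 12 counts with FGF2 and 3 and 5 counts without FGF2. Its log2 fold change of 1.90 ± 0.68 (SE, adjusted p = 0.015, edgeR) passed the threshold, but it did so in none of the 4 fits that each left out 1 library (adjusted p from 0.06 to 0.20) nor with DESeq2 (adjusted p = 0.19, range over all alternatives with a value 0.015 to 0.20).

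Tlr3, the endosomal receptor for double-stranded RNA, lies on chromosome 8 from 45395665 to 45411080 and had, per length, the highest level of the 4 Toll-like receptors among the members without FGF2. It had 32.1 and 29.8 CPM with FGF2 and 17.7 and 15.8 CPM without FGF2. The groups did not overlap, and its log2 fold change of 0.88 ± 0.13 (SE, adjusted p = 4.2e-11, edgeR) was below those of Tlr2 and Tlr4.

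The adaptor genes Myd88 and Ticam1 had fitted changes of unequal size, a gap that was not itself tested. Myd88, on chromosome 9 from 119335934 to 119341411, had 14.6 and 14.3 CPM with FGF2 and 4.76 and 5.63 CPM without FGF2, which gave a log2 fold change of 1.47 ± 0.20 (SE, adjusted p = 4.6e-12, edgeR). Ticam1, on chromosome 17 from 56269319 to 56276786, had 12.1 and 13.8 CPM with FGF2 and 8.19 and 8.96 CPM without FGF2. Its log2 fold change of 0.60 ± 0.18 (SE, adjusted p = 0.0041, edgeR) was the lowest of the tested members. The call of Ticam1 was lost without replicate 2 of the cultures with FGF2 (log2 fold change 0.50, adjusted p = 0.071), without replicate 1 of the cultures without FGF2 (0.53, adjusted p = 0.071) and with DESeq2 (0.60, adjusted p = 0.13), over alternatives whose adjusted p ranged from 0.0039 to 0.13.

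Irak3, the brake on signalling after MyD88, lies on chromosome 10 from 120141648 to 120202130 and was almost absent without FGF2. It had 49 and 38 counts with FGF2 and 2 and 5 counts without FGF2, or 5.40 and 3.86 CPM against 0.19 and 0.46 CPM. The libraries with FGF2 were above the others, and the log2 fold change was 3.77 ± 0.53 (SE, adjusted p = 8.9e-12, edgeR). The size of this change was set by few counts, since the log2 fold change was 4.51 when replicate 2 of the no-FGF2 cultures was left out and 3.28 when their replicate 1 was left out, and the ratio of pooled counts, 14.02, had an exact 95% counting interval from 6.52 to 35.9.

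**Figure D2:**
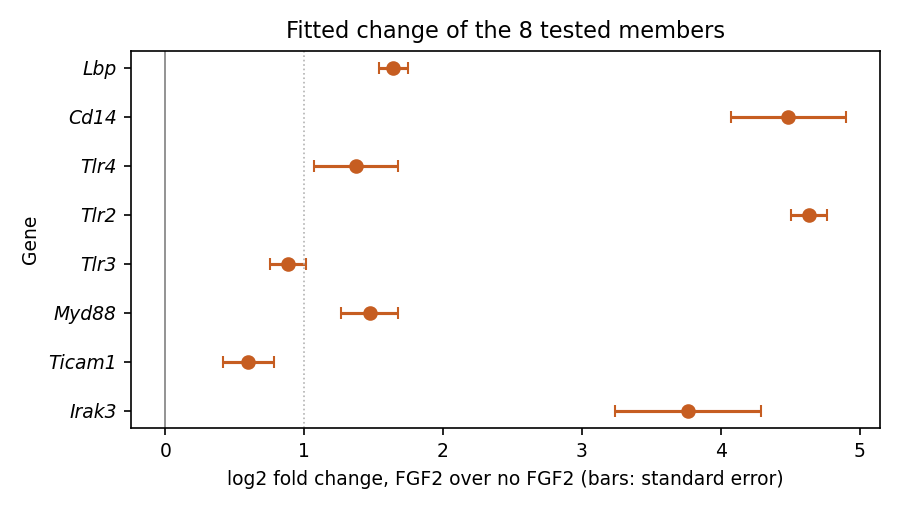
Fitted log2 fold change, FGF2 over no FGF2, of the 8 tested members, with bars for the standard error from the edgeR fit, a solid line at 0 and a dotted line at 1. Tlr2 (4.64), Cd14 (4.49) and Irak3 (3.77) lie apart from the other members, which lie between 0.60 and 1.64. Cd14 and Irak3 were tested only through their level with FGF2.

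The make-up of the members' RNA was therefore different in the cultures with FGF2. The summed level of the 10 members was 237.5 and 234.1 CPM with FGF2 and 59.8 and 57.0 CPM without FGF2. Tlr2 held 38.1% and 41.4% of this sum with FGF2 and 7.01% and 5.84% without FGF2. The share of Lbp was 27.5% and 25.2% with FGF2 and 35.0% and 33.1% without FGF2, although its own level was higher. Tlr3 went from 29.6% and 27.7% without FGF2 to 13.5% and 12.7% with FGF2, and Ticam1 from 13.7% and 15.7% to 5.10% and 5.91%.

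**Figure D3:**
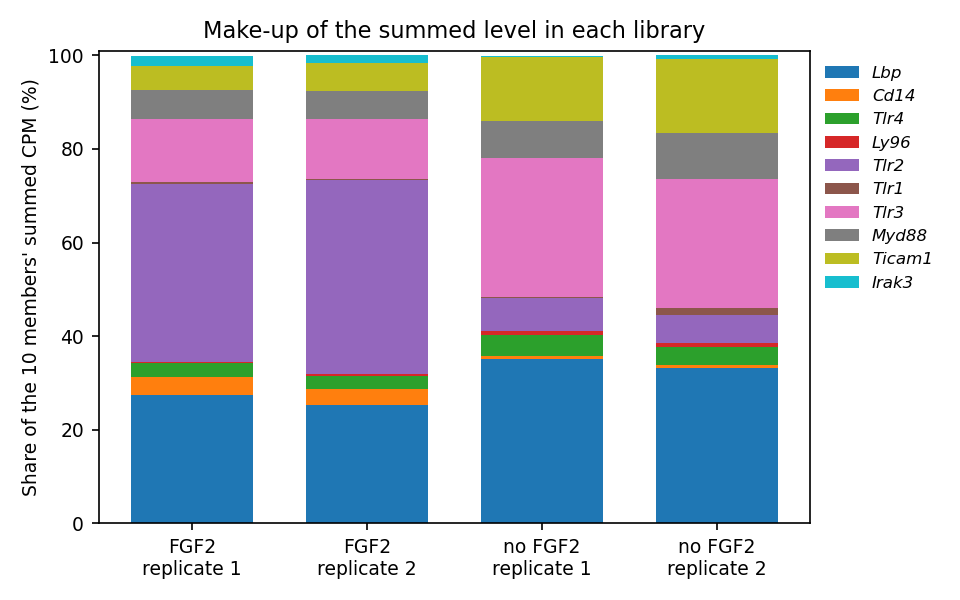
Share of each member in the summed CPM of the 10 members, as stacked bars in percent for each library. Tlr2 is the widest band with FGF2 (38.1% and 41.4%), and Lbp (35.0% and 33.1%) and Tlr3 (29.6% and 27.7%) are the widest bands without FGF2.

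To compare genes, levels were divided by the exonic length of each gene, giving CPM per kilobase. With FGF2 the order was Tlr2 with 31.1 ± 1.46 CPM per kilobase (SD, n = 2), Lbp with 12.9 ± 0.93, Tlr3 with 5.94 ± 0.31, Myd88 with 5.61 ± 0.06, Cd14 with 5.02 ± 0.29 and Ticam1 with 4.34 ± 0.40. Irak3 with 1.26 ± 0.30, Tlr4 with 1.16 ± 0.07 and Ly96 with 1.08 ± 0.30 followed, where each overlapped its neighbour between libraries, and Tlr1 was last with 0.21 ± 0.03. Without FGF2 the order was Lbp with 4.12 ± 0.31 CPM per kilobase, Tlr3 with 3.22 ± 0.26, Ticam1 with 2.87 ± 0.18, Myd88 with 2.02 ± 0.24 and Tlr2 with 1.25 ± 0.20. Ly96 with 0.50 ± 0.05 and Tlr4 with 0.45 ± 0.07 overlapped, and so did Cd14 with 0.22 ± 0.005, Tlr1 with 0.15 ± 0.14 and Irak3 with 0.09 ± 0.05 as neighbours. Tlr2 thus moved from the fifth to the first place, and Cd14 moved from below Tlr4 to above it.

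Ratios were also taken within each library, on the same scale per length. Tlr2 stood at 24.8 and 28.8 times the level of Tlr4 with FGF2 and at 2.80 and 2.77 times without FGF2. Cd14 stood at 4.31 times the level of Tlr4 in both FGF2 libraries and at 0.44 and 0.53 times in the libraries without FGF2. The ratio of Lbp to Tlr4 was 11.2 and 10.9 with FGF2 and 8.73 and 9.78 without FGF2, a smaller gap. The ratio of Tlr3 to Tlr4 was lower with FGF2, at 5.09 and 5.13 against 6.84 and 7.60. The ratio of Ly96 to Tlr4, which rests on few counts, overlapped between the groups, at 0.71 and 1.16 with FGF2 and 0.94 and 1.36 without FGF2. The ratio of Myd88 to Ticam1 was 1.39 and 1.204 with FGF2 and 0.68 and 0.73 without FGF2, so that Myd88 was the higher adaptor with FGF2 and Ticam1 the higher without it. Irak3 was at 0.13 and 0.09 times the level of the kinase gene Irak1 with FGF2 and at 0.0045 and 0.012 times without FGF2, while Irak1 itself had 53.0 and 57.8 CPM with FGF2 and 54.3 and 51.1 CPM without FGF2. These ratios have 2 libraries a group and were not tested.

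The rest of the pathway was read from lists chosen by role. Of 43 further pathway genes, 33 passed the filter, and 20 were higher, 3 were lower and 10 did not pass the threshold (edgeR), beside 20.7% and 19.9% of all tested genes. DESeq2 called 12 of them as higher and 1 as lower, and 8 of those called by edgeR had a log2 fold change over 1. The median log2 fold change of the 33 genes was 0.45. Tlr6 and Irf5, both called higher by edgeR, were tested only through their level with FGF2. Both FGF2 libraries were above both others for 29 of the 43 genes and below them for 5, beside 33.6% and 33.4% of the tested genes.

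Among the other receptors and co-receptors, 4 of 11 passed the filter and only Tlr6 was called. Tlr6 had under 10 counts in both libraries without FGF2, so it was tested only through its level with FGF2. Cd180, Tlr13 and Cd36 had log2 fold changes of 0.48, 0.38 and 0.12 with adjusted p-values of 0.38, 0.61 and 0.90 (edgeR). Tlr5, Tlr7, Tlr8 and Tlr9 had between 0 and 11 counts in a library, and Tlr11 and Tlr12 had 0 counts in all 4 libraries. Tlr13, a receptor for bacterial ribosomal RNA, had 13 and 16 counts with FGF2 and 13 and 12 counts without FGF2.

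Of 16 adaptor, kinase and ubiquitin ligase genes, 15 were tested, with 10 higher and 1 lower, beside 20.7% and 19.9% of all tested genes. Irak2, a kinase of the MyD88 complex, had the largest rise with 21.6 and 30.9 CPM with FGF2 and 9.61 and 9.24 CPM without FGF2 (log2 fold change 1.48, adjusted p = 1.1e-21, edgeR). Irak4, the first kinase of that complex, had 6.61 and 8.24 CPM with FGF2 and 4.28 and 3.33 CPM without FGF2 (log2 fold change 0.97, adjusted p = 8.2e-04), which passed with edgeR but not with DESeq2 (adjusted p = 0.069, range over the alternatives 7.2e-04 to 0.069). Traf3, which acts in the TRIF branch and restrains others, fell by 0.26 on the log2 scale (adjusted p = 2.0e-04), from 124 and 122 CPM without FGF2 to 102 and 104 CPM with FGF2. Tirap, the bridging adaptor that brings MyD88 to TLR2 and TLR4, had 15.1 and 10.1 CPM with FGF2 and 6.66 and 6.84 CPM without FGF2 (log2 fold change 0.89, adjusted p = 3.8e-05). Ticam2, the bridge from TLR4 to TRIF, had 5 and 5 counts with FGF2 and 3 and 0 counts without FGF2 and was not tested.

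Of the 3 genes for receptor folding and trafficking, Unc93b1, which escorts the endosomal receptors, was higher with 3.64 and 4.37 CPM with FGF2 and 1.71 and 1.76 CPM without FGF2 (log2 fold change 1.204, adjusted p = 0.0049, edgeR). This call was lost without replicate 2 of the cultures with FGF2 (adjusted p = 0.063) and with DESeq2 (adjusted p = 0.11, range over the alternatives 0.0018 to 0.11). Cnpy3 and Hsp90b1, chaperones of the receptors, had log2 fold changes of 0.16 and 0.09 and did not pass the threshold.

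The inhibitors went both ways. Tnfaip3, which encodes the ubiquitin editing enzyme A20, had 59.4 and 59.6 CPM with FGF2 and 6.28 and 6.00 CPM without FGF2 (log2 fold change 3.27, adjusted p = 3.3e-128, edgeR), and its partner Tnip1 had a log2 fold change of 1.40 (adjusted p = 1.4e-44). Sarm1, which restrains TRIF and also acts in the degeneration of axons, and Tollip, which restrains the IRAK kinases, fell by 0.32 and 0.21 on the log2 scale (adjusted p = 0.0012 and 0.0024). Sarm1 and Tollip did not pass with DESeq2 (adjusted p = 0.072 and 0.07), and each lost its call without 1 library, Sarm1 without replicate 1 of the cultures with FGF2 (adjusted p = 0.069) and Tollip without replicate 1 of the cultures without FGF2 (adjusted p = 0.14). Over the alternatives the adjusted p ranged from 3.0e-04 to 0.072 for Sarm1 and from 5.8e-04 to 0.14 for Tollip. Of 8 inhibitors 6 were tested, with 3 higher and 2 lower, beside 20.7% and 19.9% of all tested genes. Sigirr had 0 counts in all libraries.

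The 5 interferon regulatory factor genes were all tested and all called higher, beside 20.7% of all tested genes, but Irf5 had under 10 counts in both libraries without FGF2 and was tested only through its level with FGF2. Irf5, which acts after MyD88, had 20 and 25 counts with FGF2 and 3 and 4 counts without FGF2 (log2 fold change 2.81, adjusted p = 3.2e-05, edgeR), and Irf1 had 39.0 and 38.8 CPM with FGF2 and 9.33 and 6.93 CPM without FGF2 (log2 fold change 2.26, adjusted p = 2.3e-56). Irf3, the factor after TRIF, had the lowest log2 fold change of this list, 0.45. Among 16 genes that are known to be switched on by Toll-like receptors, 14 were tested and called higher. This count carries little weight, since 9 of the 14 had under 10 counts in both libraries without FGF2 and so had to be higher to be tested. The other 5 were Nfkbia, Nfkbiz, Cxcl10, Ifit1 and Socs3, with log2 fold changes of 2.53, 2.93, 5.76, 0.80 and 1.49 (edgeR). Among the chemokine genes, Ccl2 had 413 and 465 counts with FGF2 against 5 and 1, and Cxcl1 had 475 and 469 counts against 2 and 6. Cxcl2 had 139 and 145 counts with FGF2 against 0 and 0, which is at least 53.4-fold higher against a floor of 3 counts per library. The nitric oxide synthase gene Nos2 had 50 and 29 counts against 0 and 0, at least 15.0-fold higher. The interferon gene Ifnb1 had 0 counts in every library.

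**Figure D4:**
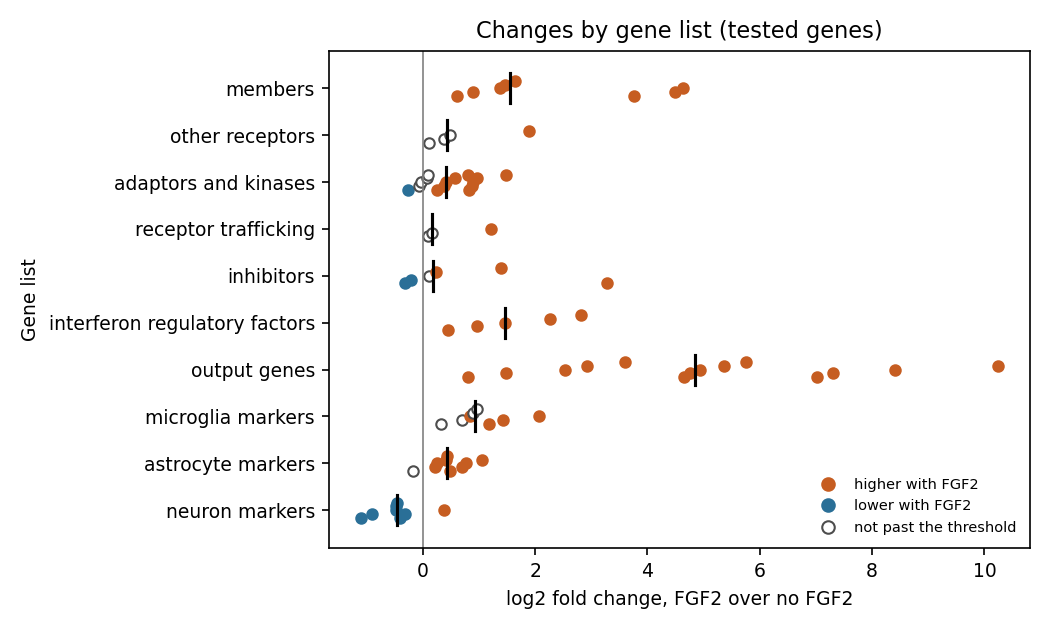
Fitted log2 fold change of every tested gene in 7 pathway lists and 3 lists of cell type markers, with filled orange points for genes called higher with FGF2, filled blue points for genes called lower, open points for genes past no threshold, and black lines at the list medians. Members and interferon regulatory factors have medians of 1.56 and 1.45, and neuron markers of -0.46. The places of Cxcl2 and Nos2 in the output list depend on the prior count, since both had 0 counts without FGF2.

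Some markers of cell types that carry these receptors were also higher with FGF2. The shares of all tested genes called, 20.7% higher and 19.9% lower, hold for each count of markers here. Of 12 microglial markers 8 were tested, of which 4 were higher and 4 did not pass, and their summed level was 25.5 and 28.3 CPM with FGF2 and 12.6 and 13.4 CPM without FGF2. The microglial markers Aif1, P2ry12, Tmem119 and Itgam had between 0 and 9 counts per library and were not tested. Cx3cr1, Fcrls, C1qa, C1qb and Spi1 had between 9 and 45 counts, and Trem2 and Ptprc between 3 and 28. Of these, Cx3cr1, C1qb and Ptprc were called higher and the others did not pass. Csf1r, the receptor on which microglia depend, had 5.40 and 5.29 CPM with FGF2 and 2.00 and 1.94 CPM without FGF2 (log2 fold change 1.43, adjusted p = 8.7e-05, edgeR). The log2 fold changes of the tested microglial markers lay between 0.32 and 2.07, the highest for Ptprc. Those of Tlr2, Cd14 and Irak3 were 4.64, 4.49 and 3.77, and those of the other tested members lay between 0.60 and 1.64. Of these, Cd14 and Irak3 were tested only through their level with FGF2. Of 6 markers of border macrophages and monocytes 2 were tested and both were higher, with summed levels of 34.7 and 38.9 CPM against 18.2 and 21.3 CPM. Most of this sum was Lyz2, with 31.4 and 35.1 CPM with FGF2 and 16.85 and 20.5 CPM without FGF2. Pf4, Lyve1 and Ccr2 had between 0 and 3 counts per library, and Cd163 had 0 counts in all libraries. Of 9 astrocyte markers 8 were higher, with a median log2 fold change of 0.42, and of 7 tested oligodendrocyte lineage markers 7 were higher, with a median of 2.18. Of 8 neuron markers 7 were lower and 1 was higher. Of the tested endothelial markers 1 of 3 was higher (Flt1, under 10 counts in both libraries without FGF2) and 1 was lower, and of the tested fibroblast and mural markers 2 of 6 were higher and 2 were lower. Which cells held the members' RNA was not measured, and the part of these cell types in the results was not tested.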

How the data were processed

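The authors mapped clean reads to mm10 with HISAT2 2.1.0, filtered the alignments by mapping quality (Samtools) and assigned read pairs to genes with HTSeq 0.11.2, and they deposited these raw counts. The annotation release and the strand setting are not given in the sources used here. Of genes almost wholly covered by a counted gene, 1 of 416 had a count where the cover was on the same strand and 86 of 277 where it was on the opposite strand, so the counts keep strands apart, which bears on Myd88 and Irak3, whose exons overlap Acaa1a and Tmbim4 on the opposite strand. Of the 55421 identifiers 55240 matched GENCODE M21, and 5 tallies that name no gene, with 43.2% to 45.9% of read pairs in no feature, were left out.

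The counts were fitted with edgeR 4.0.16 in R 4.3.3 (TMM, expression filter with a count minimum of 10, robust quasi-likelihood test). The standard error is the log2 fold change divided by the root of the F statistic. Replicates differed by more than sampling noise (chi-square per degree of freedom 2.28 with FGF2 and 1.76 without FGF2). The fits were tested on simulated data with 200 changed genes. At a 2-fold change edgeR, limma-voom and DESeq2 recovered 166, 160 and 141 of them, with 10, 10 and 1 false calls. At a 1.2-fold change they recovered 32, 23 and 15, so small changes were mostly missed in the simulation. It changed 200 of 17144 genes, whereas 40.5% of the tested genes were called in the data. Its recovery therefore cannot be carried over to the data. Alternatives were other scalings and filters, DESeq2 1.42.0, limma-voom of limma 3.58.1, a prior count of 0.5, a replicate block, leaving out each library, and stricter thresholds. Members of a list were named by a rule that takes, from each list, up to 2 called genes with the largest rise and 2 with the largest fall. Beside this, Tirap, Ticam2, Irak1, Irf3, the other output genes, Ifnb1, Sigirr, Cnpy3, Hsp90b1, the untested receptors and the cell type markers were named for their role after their values were seen. The members, lists and alternatives were chosen with earlier results of these data known. A further microglial marker is not reported here, so the counts and summed levels of that list cover the other 12 markers only.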

Additional observations from a re-analysis of the deposited data

How the results depend on the processing

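All 8 tested members kept a positive log2 fold change in every fit that gave them a value, and Tlr2, Cd14, Lbp, Tlr4, Myd88, Irak3 and Tlr3 passed the adjusted threshold of 0.05 in each of them. A minimum of 10 counts per library kept 6 members, with a median of 1.425, since Cd14 and Irak3 were no longer tested. With a library left out the median ranged from 1.51 to 1.62. DESeq2 called 3999 of all genes in place of 6949, 7 members, and 13 of the further pathway genes in place of 23 (12 higher and 1 lower), and the cause was not tested. Adding a log2 fold change over 1 left 1303 genes and 8 pathway genes. The titles number the libraries alike in both groups, but the deviations of the libraries numbered 1 were not correlated across genes (r = 1.3e-05). This value cannot exclude a shared source that acts on few genes, and how the replicates were made is not stated. With the replicate block, 8 members, 23 pathway genes and 6814 of all genes were called and the member median was 1.56. Counts of 13 or fewer per library limit Tlr1 and Ly96.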
